A study of Mus musculus with 6 samples.

Results

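The retina of the C57BL/6J mouse at embryonic day 13.5 (E13.5) was compared with the retina at postnatal day 21 (P21), the first and the last stage of a developmental series. These are 2 of 6 samples, 1 sample per stage, and each sample has 2 count columns in the deposited table, so 4 of 12 columns were compared. Both groups were whole retina tissue of the same strain, with no genetic or drug treatment named in the labels, and the number of animals behind a sample was not given in the sources used here. The libraries were made by PA-seq, in which an oligo(dT) primer captures the end of each polyadenylated RNA, so that a tag marks the poly(A) site that was used. With 1 sample per stage no test between the stages was possible, and the columns of a sample were not treated as replicates. A value was asked instead to appear in the first and in the second columns.

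Most mammalian genes can end their transcripts at more than 1 poly(A) site. Cleavage is directed by a hexamer upstream of the site, most often AAUAAA, which is bound by the cleavage and polyadenylation specificity factor. When the sites lie in the same last exon, the choice changes the length of the 3′ UTR and leaves the protein as it was. When they lie in different exons or in an intron, it can also change the end of the protein. Dividing cells are known for short 3′ UTRs and neurons for long ones. At E13.5 the retina consists mostly of dividing progenitors and young ganglion cells, while at P21 it holds differentiated rods, cones, interneurons and glia.

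The E13.5 columns held 2039939 and 1773297 tags and the P21 columns 1958762 and 1965997. Of 32688 sites, 29094 were given to 14397 genes, and 7027 genes had at least 2 sites. Across 9257 genes with at least 20 tags in all 4 columns, log2 CPM (scaled tag counts, as CPM) correlated at r = 0.98 between the columns of E13.5, at 0.97 between those of P21 and at 0.73 between the stages in the first columns. The tissue label fitted its markers, with all 11 retinal marker genes detected in every column. The columns were not equal, however. Nrl, a rod transcription factor, stood at 190 and 8.53 CPM in the E13.5 columns. Conversely Sfrp2, a progenitor gene, stood at 35.7 CPM in 1 column of P21 and had 0 tags in the other. Summed CPM at E13.5 was 1782 and 1232 for the photoreceptor transcription factors and 2839 and 819 for phototransduction and outer segment genes. That of the cell cycle list was 2266 and 921 at P21, so these genes of the opposite end point were higher in the first columns. Whether first-column values of this kind, such as Crx at 182 CPM against 86.5 in the other column of E13.5, hold tags of another stage was not tested, nor was their part in the results. Large gaps were not limited to genes of the opposite end point. Actb stood at 1134 and 62.0 CPM and Tuba1a at 773 and 18.8 CPM at E13.5. At P21 the phototransduction gene Pde6g stood at 1167 and 122 CPM and Sag at 604 and 89.0 CPM. Summed markers of other tissues ran from 505 to 959 CPM for lens genes (lowest in the second column of P21), from 218 to 240 CPM for microglia, from 438 to 744 CPM for vessels, from 89.3 to 425 CPM for pigment epithelium, from 434 to 1051 CPM for red blood cells and from 428 to 501 CPM for mesenchyme. Vessel and pigment epithelium sums were higher at P21 in both columns and those of red blood cells and mesenchyme higher at E13.5. In these bulk samples, fewer cells of a type and less RNA per cell cannot be told apart, nor can a change in cell mix and a change of site choice within cells.

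Site choice was measured in each gene between its 2 most used sites, called its pair. The distal share gives the tags of the 3′-most site as a percentage of both. A pair needed at least 20 tags in each of the 4 columns, which 4797 of 6122 genes with a pair met. A gene was called a mover when its distal share changed by at least 20 percentage points in the same direction in both columns. By this rule 197 genes moved to the distal site, 4.11% of the genes with a pair, and 66 moved to the proximal site, 1.38%. Together these 263 movers are 5.48% of the genes with a pair. Over all pairs the median distal share was 59.9% at E13.5 and 63.6% at P21 in the first columns, and 59.2% and 64.0% in the second. The median change per gene was 2.33 and 2.70 points in the first and second columns, with quartiles of -3.07 and 8.32 points in the first columns. A higher distal share at P21 was seen in 61.7% of pairs by the first columns and in 61.9% by the second.

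Large moves were seen in both columns for a part of the pairs only. Across genes the change in the first columns correlated with that in the second at r = 0.77, a description over genes that share these libraries. The first columns alone gave 5.67% of pairs as distal and 2.29% as proximal movers, the second columns 8.17% and 2.94%. Of 382 pairs with a change of 20 points in the first columns, 263 had it in the second columns as well, 68.8%, and of 533 such pairs in the second columns these were 49.3%. Another 387 pairs passed in 1 column only and 1 pair passed in opposite directions. The larger change lay in the second columns for 149 of the 197 distal and 49 of the 66 proximal movers, against 57.7% of all pairs. The typical gap between the columns of 1 stage was small, with a median of 2.96 points at E13.5 and 3.10 points at P21. In 175 distal and 60 proximal movers even the closest columns of the stages were at least 20 points apart. Just inside the threshold lay Rnf41, with changes of 20.1 and 34.4 points, and just outside it Rrnad1, with 19.9 and 33.2 points.

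**Figure D1:**
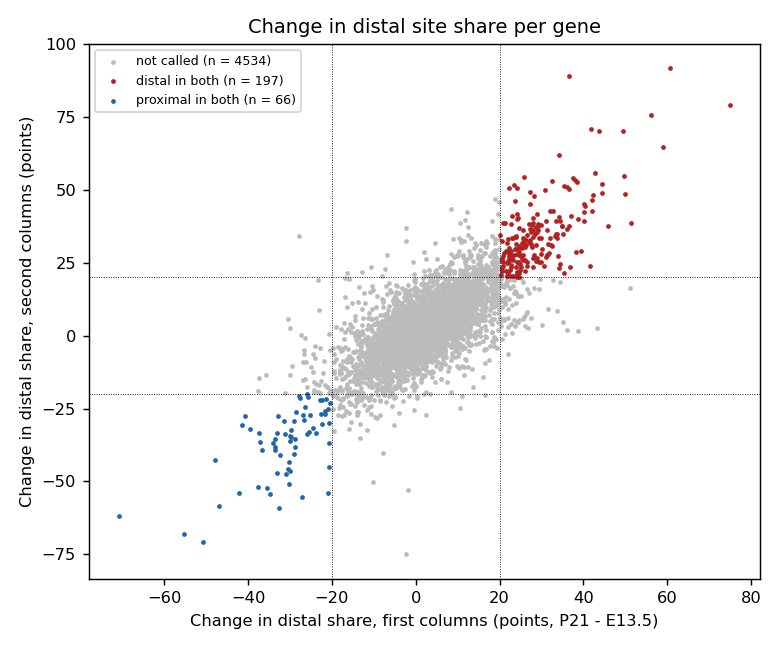
Change in distal share from E13.5 to P21 in percentage points, first columns on the x axis and second columns on the y axis, 1 point per gene, with dotted lines at the threshold of 20 points. The 197 distal movers fill the upper right corner, the 66 proximal movers the lower left, and 1 gene lies past the lines in opposite directions.

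The sequences before the sites of 7 genes show what the machinery met at either end. Each line gives 30 bases of the RNA strand, written as DNA from the GENCODE transcript sequence (GRCm38), ending at or before the 3′ edge of the site, with the hexamer in capitals. The first 5 genes have AATAAA at both sites and still changed their choice by 25 points or more. In Ppp1cb the proximal site has a variant hexamer, and in Nova2 both sites have one.
Tubb5 proximal site: caggcactcAATAAAtatttgtttgtggaa
Tubb5 distal site: agagccaaaAATAAAtgggaattggaaaaa
Tpm3 proximal site: tattttctaacAATAAAagcactgacttga
Tpm3 distal site: ttttgaAATAAAgaaccagtccctccacga
Sympk proximal site: ttgctcAATAAAgacttcctgattgacaca
Sympk distal site: aacacaAATAAAagagggcgtagctgcgcc
Map6 proximal site: tcccagttataAATAAAtgctaaagacaaa
Map6 distal site: ggaatctAATAAAattggttcctctggctc
Ebna1bp2 proximal site: ttattttAATAAAttaaacttatggaagaa
Ebna1bp2 distal site: agccccaatgaAATAAAtgttgtgcttata
Ppp1cb proximal site: ttctcatttAGTAAAagttgtctaattgat
Ppp1cb distal site: ttgagcaAATAAAatgagttttttgattgg
Nova2 proximal site: ttgttgattttAATAGAaaacaaagcgtta
Nova2 distal site: aaatgaACTAAAcagacccaaacatgtctg
The Tubb5 runs lie at chr17:35834805-35834834 and chr17:35833921-35833950 on the minus strand, the Tpm3 runs at chr3:90098751-90098780 and chr3:90100870-90100899, the Sympk runs at chr7:19051723-19051752 and chr7:19054578-19054607, and the Map6 runs at chr7:99320321-99320350 and chr7:99337107-99337136, the last 3 genes on the plus strand. On the plus strand too, the Ebna1bp2 runs lie at chr4:118625951-118625980 and chr4:118627744-118627773, the Ppp1cb runs at chr5:32492723-32492752 and chr5:32493683-32493712, and the Nova2 runs at chr7:18958924-18958953 and chr7:18965279-18965308. All of these sites lie in terminal exons of annotated transcripts.

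Among all pairs with sequence, AATAAA stood in the 40 bases before 52.3% of 4337 proximal and 67.7% of 3925 distal sites. In distal movers it stood before 63.6% of 173 proximal and 75.6% of 160 distal sites, and in proximal movers before 53.7% of 41 proximal and 59.6% of 57 distal sites. Besides AATAAA and the common variant ATTAAA, the variants AGTAAA and TATAAA and CATAAA and GATAAA and AATATA and AATACA and AATAGA and AAAAAG and ACTAAA were searched. None of these hexamers was found before 5.20% of the proximal sites of distal movers, against 12.2% of all proximal sites. Where both sites had sequence, both held AATAAA in 72 of 141 distal movers (51.1%), against 36.3% of 3572 pairs. The motif TGTA, which the cleavage factor I complex binds as UGUA in RNA, stood in the same window before 24.9% of the proximal and 24.4% of the distal sites of distal movers, against 24.3% and 25.2% of all pairs. Only the transcript strand was searched and the motifs can overlap. A-rich stretches in the 20 bases after the site, where an oligo(dT) primer could start inside an RNA, followed 8 of 147 proximal sites of distal movers (5.44%) and 0 of 26 of proximal movers, against 5.59% of all proximal sites. Of distal sites, they followed 1 of 34 of distal movers (2.94%) and 2 of 28 of proximal movers (7.14%), against 3.31% of all. Sites in introns had no transcript sequence and were not searched.

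Pairs in the same last exon and pairs in different exons differed in how often and which way they moved. Of 3895 pairs in the same last exon, 128 moved distally (3.29%) and 21 proximally (0.539%). Of 902 pairs in different exons, 69 moved distally (7.65%) and 45 proximally (4.99%). Hence 65.0% of the distal movers but 31.8% of the proximal movers changed only the length of the last exon, against 82.6% of the pairs that did not move. Pairs whose proximal site lay in an intron moved about equally often either way, 22 distally and 25 proximally of 413. Where the proximal site of such a pair lay in a terminal exon of another transcript, 46 moved distally and 19 proximally of 436.

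Distance between the sites went with the moves in the same last exon. With the sites up to 300 bases apart, 3 of 1131 pairs moved distally and 4 proximally. Above that and up to 1500 bases, 36 of 1732 moved distally (2.08%), from there to 3000 bases 43 of 698 (6.16%) and over 3000 bases 46 of 334 (13.8%). Proximal moves over the same classes stayed between 0.354% and 1.80%. The median change rose likewise from 0.565 to 2.79, 4.95 and 7.38 points. Of pairs in different exons, 0 of 18 moved distally up to 300 bases and 2 of 62 (3.23%) from there to 1500 bases. Up to 3000 bases 8 of 86 did so (9.30%) and above that 59 of 736 (8.02%). The shorter classes hold few pairs, so whether these moves follow distance cannot be told. The distal movers of the same last exon had their sites a median of 2407 bases apart, against 676 bases in pairs that did not move.

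**Figure D2:**
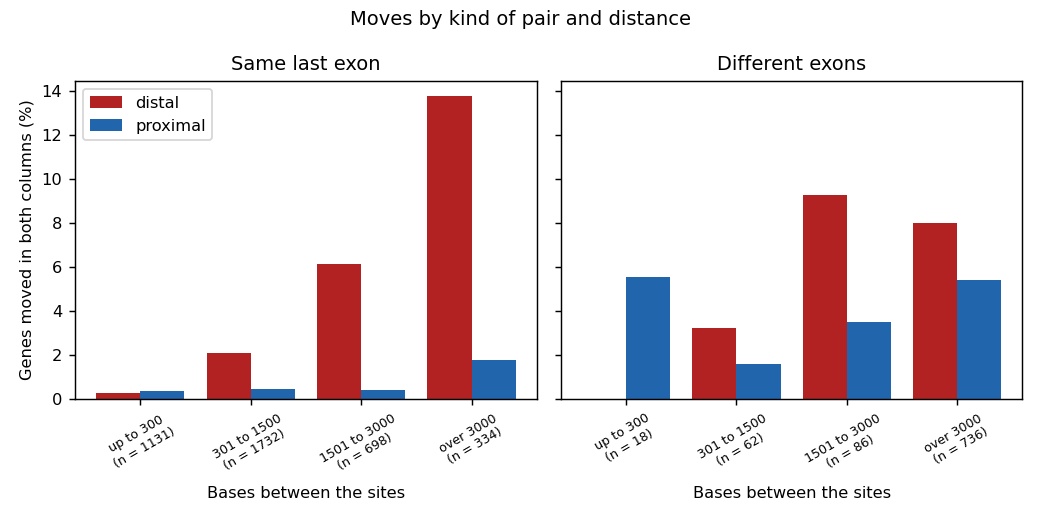
Percentage of genes that moved by 20 points or more in both columns, by the distance between the sites in bases, for pairs in the same last exon (left) and in different exons (right), with distal moves in red and proximal moves in blue. Distal moves in the same last exon run from 0.265% to 13.8%, and the first class on the right holds 18 pairs only.

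With 50 tags or more in each column, the largest distal move was that of Ryr3. Ryr3, an intracellular calcium release channel, used its distal site for 6.06% and 4.76% of tags in the E13.5 columns and for 81.0% and 84.1% in the P21 columns, a change of 77.1 points (95% interval of the difference 68.0 to 83.3, counting error only). Its proximal site (chr2:112714420-112714465) lies in an intron, 83043 bases before the distal site (chr2:112631377-112631401) in the last exon. The proximal site fell from 30.3 and 34.1 to 6.59 and 5.97 CPM while the distal site went from 1.96 and 1.71 to 28.0 and 31.5 CPM, so the gene as a whole changed little, from 32.3 and 35.8 to 40.1 and 46.7 CPM. The stages did not overlap, and the site that ends the full-length transcript was the minor one at E13.5 and the major one at P21.

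Camk1d, a calcium-regulated protein kinase, showed the same arrangement, with a proximal site in an intron 85668 bases upstream. Its distal share was 24.4% and 14.8% at E13.5 and 68.9% and 66.9% at P21. Ddah1, which breaks down an inhibitor of nitric oxide synthase, went from 37.0% and 29.5% to 79.7% and 85.5%, also from an intronic site. Mbd2, a reader of methylated DNA, went from 28.6% and 32.4% to 87.6% and 97.2%, and here the intronic site fell from 96.4 and 95 to 8.78 and 1.63 CPM. In all 4 genes both P21 columns lay far above both E13.5 columns.

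Map6, a microtubule-stabilising protein of neurons, joined a terminal exon to another one 16786 bases downstream. Its distal share went from 38.8% and 31.9% to 76.9% and 85.4%. The proximal site fell from 119 and 135 to 40.6 and 22.8 CPM and the distal site went from 75.9 and 63.2 to 136 and 133 CPM. Pbdc1 went from 15.0% and 16.4% to 59.4% and 65.5%, Spindoc from 24.6% and 21.7% to 74.5% and 70.4%, and Map3k10, a kinase of the JNK cascade, from 41.4% and 31.0% to 83.6% and 79.3%. These 3 pairs also joined different exons or introns.

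In the same last exon, Ebna1bp2, a nucleolar protein of ribosome assembly, went from 17.1% and 16.5% to 57.2% and 61.5%. Depdc5, a brake on mTOR complex 1, went from 27.6% and 31.7% to 67.6% and 71.2%, and Mtr, the methionine synthase, from 42.5% and 38.6% to 79.4% and 79.8%. Rps15a, a ribosomal protein, went from 15.8% and 15.0% to 59.6% and 85.3%, with the P21 columns far apart. Ribosomal protein genes have many processed copies, so its tags are less certain. Atp2a2, which pumps calcium into the endoplasmic reticulum, was chosen after its values were seen. Its pair joins an inner exon to the last one, and its distal share went from 35.8% and 29% to 71.8% and 80.1%.

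Among the proximal moves, Tubb5, a beta tubulin, was deeply counted, with 1113 tags or more over its pair in every column. Its distal share was 87.4% and 93.1% at E13.5 and 32.1% and 25.1% at P21, a change of -60.9 points (95% interval -62.9 to -58.8). The sites are 884 bases apart in the same last exon. Its proximal site went from 81.2 and 48.4 to 606 and 452 CPM and its distal site from 565 and 653 to 287 and 151 CPM. The gene as a whole stood at 654 and 715 CPM at E13.5 and 893 and 604 at P21, with a sign that differed between the columns.

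Most other large proximal moves joined different exons. Tpm3, a tropomyosin whose last exons encode different ends of the protein, went from a distal share of 79.1% and 84.4% to 32.2% and 26.0%. Ppp2r5c, a regulatory subunit of protein phosphatase 2A, went from 84.9% and 89.8% to 52.5% and 49.0%, and here the distal site stayed at 110 and 121 against 116 and 120 CPM while the proximal site went from 19.6 and 13.7 to 105 and 125 CPM. Med14, a Mediator subunit, went from 61.4% and 75.4% to 30.5% and 27.9%. Amn1 went from 97.8% in both columns to 66.7% and 64.2%.

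The proximal site lay in an intron in 6 further genes. Mllt10, a partner of the histone methyltransferase Dot1l, went from a distal share of 54.0% and 50% to 6.06% and 7.48%. Its distal site had none of the searched hexamers before it and an A-rich stretch after it. Ammecr1 went from 96.0% and 94.1% to 62.5% and 54.8%, and 3110082I17Rik from 95.9% and 100% to 45.1% and 29.3%. Slc20a2, a phosphate transporter, went from 82.6% and 93.2% to 40.6% and 39.2%, Slc39a10, a zinc transporter, from 88.8% and 86.0% to 55.2% and 47.8%, and Rcc1, the exchange factor of Ran, from 58.1% and 60% to 23.9% and 23.3%. The proximal sites of these last 3 genes also lie in exons of the noncoding genes Gm17491, Gm28151 and Snhg3 on the same strand, so their tags may belong to those genes. Such an overlap was found in 6 of the 66 proximal and 4 of the 197 distal movers, against 49 of the 4534 pairs that did not move. Cyren, a regulator of DNA end joining, went from 64.4% and 61.5% to 31.4% and 28.1%. Klc1, a kinesin light chain counted with 653 tags or more over its pair in every column and chosen after its values were seen, went from 39.6% and 43.7% to 13.7% and 9.80%.

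**Figure D3:**
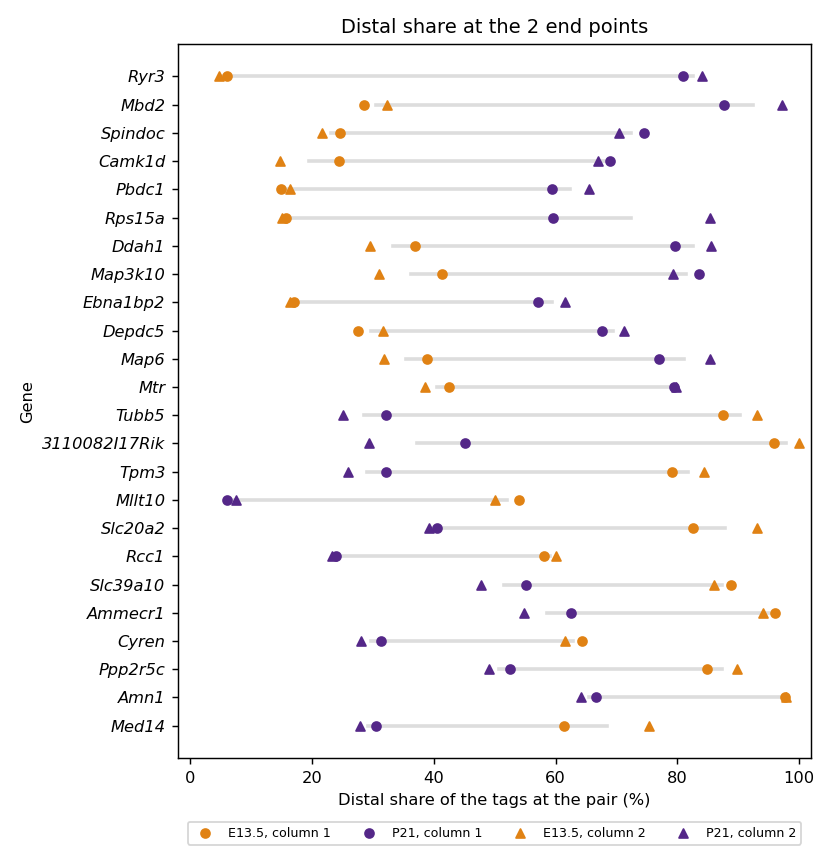
Distal share of the tags at the pair in percent for the 12 distal and the 12 proximal movers with the largest change in the lesser column among those with 50 tags or more in every column, with E13.5 in orange and P21 in purple, circles for the first and triangles for the second columns, and grey bars between the means of the columns. No gene has overlapping stages, and the P21 columns of Rps15a lie farthest apart, at 59.6% and 85.3%.

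Of the gene lists chosen for this tissue, 3 held at least 3 movers each, to be read beside the 5.48% of all pairs that moved. Of 30 neural RNA-binding proteins with a pair, 3 moved distally and 1 proximally (13.3% in all), with a median change of 5.65 points against 2.51 over all pairs. Tardbp, a regulator of splicing and RNA stability, went from a distal share of 39.9% and 35.0% to 61.4% and 64.2%, Hnrnpd, which binds AU-rich elements, from 21.5% and 19.4% to 45.6% and 47.3%, and the neuronal splicing regulator Ptbp2 from 37.8% and 35.4% to 61.1% and 69.1%. The splicing regulator Nova2 moved the other way, from 30.8% and 29.5% to 10.4% and 6.52%. Among 13 genes of the cleavage and polyadenylation machinery with a pair, 2 moved distally and 1 proximally (23.1%), with a median of -1.71 points. Fip1l1, a subunit of the cleavage and polyadenylation specificity factor, went from 44.4% and 42.4% to 69.6% and 69.7%, the phosphatase Ppp1cb from 25.1% and 30.5% to 51.5% and 54.4%, and the scaffold protein Sympk from 95.3% and 97.3% to 66.3% and 56.8%. At the level of abundance, 1 of the 24 genes on this list was up (Ssu72) and 2 were down (Papolg and Nudt21). Nudt21, a cleavage factor I subunit, stood at 36.7 and 35.8 CPM at E13.5 and 8.78 and 11.4 CPM at P21. Its P21 values rest on 16 and 21 tags. The other subunits of this factor on the list were not called. Cpsf6 went from 421 and 392 to 329 and 303 CPM and Cpsf7 from 157 and 159 to 159 and 151 CPM.

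Of 22 genes long known for alternative 3′ ends, 3 moved distally and none proximally (13.6%), with a median of 9.16 points. One of them, Cask, a synaptic scaffold, went from 47.0% and 43.6% to 73.3% and 74.6%. An A-rich stretch followed its proximal site. Among 15 cytoskeletal and axon growth genes 1 moved distally (Map6) and none proximally, with a median of 10.9 points. This list does not hold the tubulin gene Tubb5, the tropomyosin gene Tpm3 or the kinesin light chain gene Klc1, which all moved proximally. The medians were 7.21 points for 18 genes of ubiquitin and protein turnover, 1.55 for 21 signalling enzymes and -2.77 for 18 chromatin regulators, and none of these genes was a mover. Of 2 microglial genes with a pair, Cx3cr1, a chemokine receptor, moved distally by 45.8 and 37.7 points. Few members per list make such shares imprecise.

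Abundance was counted over more genes than site choice and at a threshold of another kind, so their extents cannot be ranked. Of genes with a pair, 11.0% were up 2-fold, 7.92% were down 2-fold and 5.48% moved by 20 points. With 10 points as the size of a move, 14.5% of the pairs moved distally and 5.52% proximally. With a change of at least 2-fold in both columns and at least 20 tags in the larger library, 2389 of 11929 genes were up at P21 (20%) and 1573 were down (13.2%). Over all genes tested for abundance, 40.2% had a pair, but 22.1% of those up and 24.2% of those down. Of 27 phototransduction and outer segment genes 24 were up and none down, with a median log2 ratio of 4.44, but 4 had a pair and none moved. Beside the 5.48% over all pairs, nothing can be read from a count of 0 among 4 pairs, nor among the 5 and 9 pairs of the cell cycle and progenitor lists. Of 32 synaptic genes 28 were up, 13 had a pair, and 1 moved, namely Pclo, a scaffold of the release site, from a distal share of 13.3% and 10.8% to 47.8% and 50.3%. Of 14 photoreceptor transcription factors 10 were up, 6 had a pair, and 1 moved proximally, namely Thrb, a thyroid hormone receptor, by -25.2 and -27.3 points. Of 35 cell cycle genes 31 were down, 5 had a pair and none moved. Among 29 progenitor and neurogenic genes 21 were down and 2 up, while 9 had a pair and none moved. A single site was found for 52.2% of the genes that were up, for 49.5% of those down and for 39.3% of the remainder, and calling a site itself needs tags. A further 492 of the genes that were up and 328 of those down had a pair with too few tags in at least 1 column.

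Among genes with a pair, 11.0% were up and 7.92% were down. The distal movers were near this level for rises, with 20 of 197 up (10.2%), and 6 were down (3.05%). Of the 66 proximal movers 13 were up (19.7%, 95% Wilson interval 11.9 to 30.8) and 4 were down (6.06%). At least 50 tags in each column left 6 of 131 distal movers up (4.58%) and 4 of 39 proximal movers up (10.3%), beside 7.18% of all such pairs, and no proximal mover down. The median log2 abundance ratio was 0.07 for distal movers, 0.13 for proximal movers and -0.08 for pairs that did not move. Across the 4797 genes the change in share and the log2 abundance ratio had r = 0.01 by the first columns and -0.002 by the second, a description over genes measured in the same libraries. When the share change of 1 column was set against the abundance ratio of the other, r was 0.01 and -0.003. From the other side, 3.80% of the genes that were up moved distally and 2.47% proximally, 1.58% and 1.05% of those that were down, and 4.40% and 1.26% of the remainder.

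**Figure D4:**
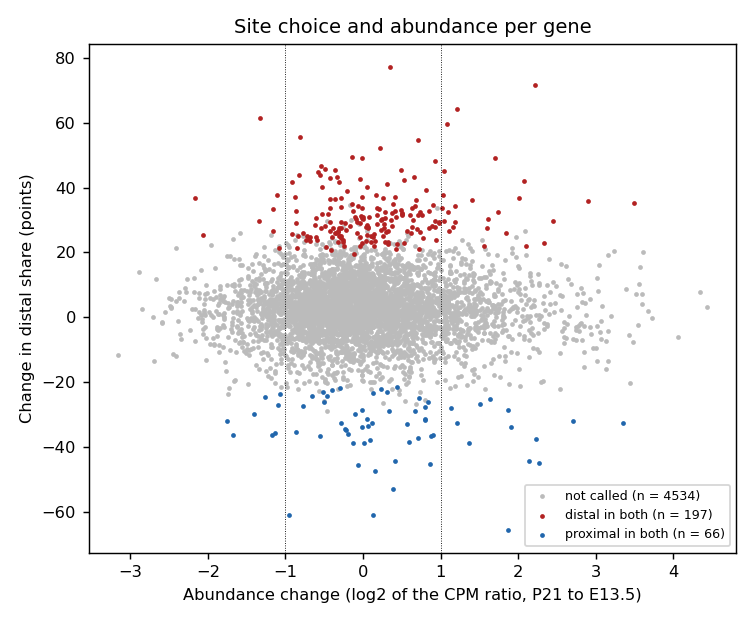
Change in distal share in points (y axis, columns added) against the log2 ratio of gene CPM from E13.5 to P21 (x axis), 1 point per gene, with dotted lines at 2-fold. Of the distal movers in red 171 of 197 and of the proximal movers in blue 49 of 66 were not past 2-fold in both columns. The same held for 3890 of all 4797 pairs.

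At the level of single sites, most moves had a 2-fold change at 1 site, and few had opposite changes at both. In the 197 distal movers the distal site alone was up 2-fold in both columns in 82, the proximal site alone was down in 49, and both held in 13. The median log2 ratio was 1.30 at the distal and -0.95 at the proximal site. In the 66 proximal movers the proximal site alone was up in 30, the distal site alone was down in 18 and both held in 3, with medians of 1.68 at the proximal and -0.86 at the distal site. In all pairs the distal site was up in 13.4% and down in 7.55%, and the proximal site up in 8.84% and down in 11.3%.

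Some genes changed in site choice and abundance together. Syngr1, a synaptic vesicle protein, stood at 61.2 and 39.8 CPM at E13.5 and at 266 and 296 CPM at P21. Nearly all of this lay at its distal site, which went from 40.1 and 19.3 to 233 and 261 CPM while the proximal site stayed at 17.6 and 15.9 against 15.9 and 14.1 CPM. Agpat3, an enzyme of phospholipid synthesis, went from 203 and 143 to 1258 and 1350 CPM with a distal share of 48.8% and 26.8% at E13.5 and 76.1% and 76.2% at P21. Its E13.5 columns lay 22 points apart. Cul9, a cullin, and Otud7b, a deubiquitinase, were up by log2 2.10 and 1.57 with distal shares up by 22.0 and 22.1 points.

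Npm1, a nucleolar chaperone, fell from 273 and 287 to 85.1 and 49.4 CPM as its distal share went from 58.1% and 55.3% to 78.8% and 87.8%. It has many processed copies, so its tags are less certain. Gmps, an enzyme of guanine nucleotide synthesis, fell by 1.10 on the log2 scale as its distal share went from 52.1% and 52.5% to 86.4% and 93.2%. Mbd2 fell by 1.33 on the log2 scale. In these 3 genes the proximal site was down 2-fold in both columns. In Npm1 the distal site was down 2-fold as well, from 151 CPM in both columns to 63.1 and 39.1 CPM.

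Proximal gain with higher abundance was seen in Meg3, an imprinted noncoding RNA, from 81.2 and 47.2 to 625 and 712 CPM, with a distal share of 92.1% and 96.2% at E13.5 and 62.2% and 60.2% at P21. Nfasc, an adhesion protein of the axon initial segment, went from 94.0 and 102 to 212 and 219 CPM and from 85.8% and 85.5% to 59.0% and 56.6%. Aak1, a kinase of clathrin-mediated endocytosis, went from 78.3 and 61.4 to 245 and 272 CPM and from 72.9% and 77.8% to 44.0% and 48.5%. With sites inside the gene only, its pair was another one and the change was -10.9 points.

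Other genes changed 4-fold or more with under 5 points of change in site choice in both columns. Crx, the homeobox factor of photoreceptors, went from 182 and 86.5 to 728 and 725 CPM with a distal share of 77.5% and 81.5% at E13.5 and 80.0% and 79.3% at P21 (change 1.02 points, 95% interval -2.83 to 5.26). Mir124a-1hg, a host transcript of the neuronal microRNA miR-124, and Vax2os, a retinal noncoding RNA, were up by log2 3.20 and 2.23 with changes of 0.30 and 0.81 points. Anp32b, a histone chaperone, fell by 2.24 on the log2 scale with a change of -4.05 points. Such small moves were seen in 21 of 123 genes up 4-fold (17.1%) and 4 of 19 down 4-fold (21.1%), beside 25.5% of all pairs.

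The 4 stages between the end points, which the call did not use, were looked at for the movers that had 40 tags or more there in each of them. From E15.5 to P6 the distal share was higher at P6 in 164 of 184 distal movers and lower in 20, with a median change of 11.2 points. It was lower at P6 in 52 of 63 proximal movers and higher in 11, with a median of -9.60 points. Among 4400 pairs that had not moved it was higher in 2624 and lower in 1770, with a median of 1.44 points. The median distal share of the distal movers over the 6 stages was 33.8%, 40.4%, 43.2%, 48.1%, 55.5% and 66.8%, and that of the proximal movers 73.0%, 66.7%, 65.8%, 55.7%, 52.3% and 36.7%. All 4 middle stages lay between the end points in 131 distal and 43 proximal movers. The largest step fell between P6 and P21 in 77 distal and 32 proximal movers, an interval that spans the most days and ends in the P21 values that chose the movers, and in 1005 of the pairs that had not moved.

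Single genes took different courses over the stages. The distal share of Tubb5 was 90.2%, 82.5%, 87.1% and 86.8% up to P0 and then 32.0% at P6 and 29.3% at P21, a drop seen in both columns. Gmps stood at 52.3%, 38.1% and 39.2% up to E18.5 and at 89.4%, 88.1% and 89.9% from P0, and Rps15a at 15.5%, 14.3% and 16.8% and then at 58.4%, 61.6% and 71.0%. Ryr3 climbed at each stage, from 5.43% over 22.9%, 28.1%, 43.7% and 72.4% to 82.6%. With its columns added, Sympk fell at each stage, from 96.3% to 61.5%. Not all movers were ordered. Ppp1cb went through 27.6%, 65.3%, 24.3%, 59.5%, 38.3% and 52.9%, so that its E15.5 and P0 samples lay above its P21 sample.

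**Figure D5:**
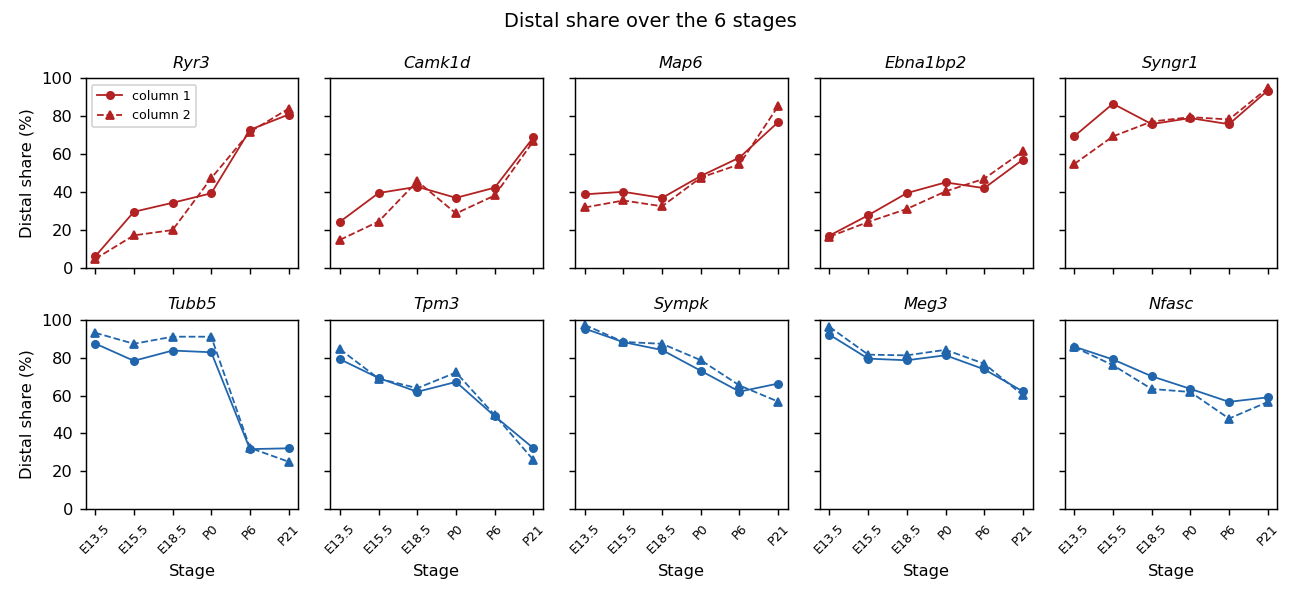
Distal share in percent over the 6 stages for 5 distal movers (red, top) and 5 proximal movers (blue, bottom), with solid lines and circles for the first and dashed lines and triangles for the second columns. Tubb5 drops between P0 and P6 in both columns, while Ryr3 climbs and Sympk declines over most stages.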

How the data were processed

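PA-seq tags were counted in retina at 6 stages, 1 sample each. The deposited table holds, per the file headers, raw tag counts per poly(A) site in 12 columns and 1 enrichment score per site over the series. The score was not used here. Per the submitters' processing notes, BWA 0.7.5a-r405 and mm10 were used, while site clustering, filters, treatment of duplicate reads and the meaning of the 2 columns per stage were not given in the sources used here. No site had fewer than 41 tags over the 12 columns.

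Sites were placed on GENCODE M21 genes (GRCm38) by their 3′ edge, on the same strand, in the gene or up to 1000 bases downstream, coding genes first. Of the sites, 674 lay in more than 1 coding gene. In the 4 columns 95.3% to 97.6% of tags were given to genes. Mitochondrial tags were left out. Gene CPM used TMM (edgeR 4.0.16, R 4.3.3) over the 4 columns, and counts under 3 were set to 3 in ratios, a floor of 1.47 to 1.69 CPM over all tags. Each site of a pair had at least 5% of the tags of its gene over the 12 columns. Intervals (95%, Wilson for shares, Newcombe for differences) cover counting error only, since PCR tags are not independent molecules. The calls were tested on simulated data with Python 3.11.15. Members, lists and rules were chosen with earlier results of these data known.

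Named genes had at least 50 tags at the pair in each column and no site in several coding genes. They were the 12 largest movers each way by the lesser column, up to 4 with most tags for each joint change with abundance, up to 4 movers per list, and up to 3 genes each way that changed 4-fold with under 5 points of move. Some items that the rule names are not reported here. Pclo, Thrb and Cx3cr1 have fewer tags and were named, after their values were seen, as the only movers of their lists. Alternatives were the sizes of move and fold, the minimum of tags, the choice and kind of pair, sites inside genes only, single or added columns and 2 other scalings. Leaving out pairs in another gene or beside A-rich sequence was chosen after seeing the data.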

Additional observations from a re-analysis of the deposited data

Results flagged for a closer look

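A signal outside the pairs was present. Counted over all tags of a gene, 302 genes had a site whose share moved by 20 points or more in both columns, and 74 of them were not among the movers. Of these, 18 had no pair that met the minimum of tags. No share over all genes counted in this way is given, so the 302 cannot be set beside the 5.48% of pairs that moved. Scn8a, a neuronal sodium channel, had a site with 29.5% and 31.0% of its tags at E13.5 and 90.4% and 91.3% at P21. A site of Ncam1, a neural adhesion molecule, went from 6.67% and 0% to 53.2% and 54.8%, and a site of Trio, a guanine nucleotide exchange factor, from 3.53% and 1.39% to 56.9% and 46.8%. Dnmt3a, a DNA methyltransferase, had a site that went from 19.3% and 14.9% to 60.3% and 57.6%. These 4 genes were picked for size after their values were seen.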

How the results depend on the processing

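Distal moves outnumbered proximal ones under every alternative run. With 10 points as the size of a move there were 694 distal and 265 proximal movers, with 30 points 53 and 29, with 50 tags 131 and 39, with 1 tag 316 and 116, and in the same last exon 128 and 21. The first columns alone gave 110 proximal movers, the second columns alone 392 distal and 141 proximal, and added columns 103 proximal. The 4-fold threshold left 1228 genes up and 455 down. Among distal movers the share up in abundance was 4.58% with 50 tags, 23.7% with 1 tag (15.9% of all such pairs), 17.1% in the second columns (14.3% of all pairs) and 3.55% at 4-fold (2.56%). The share down was 11.5% in the second columns (13.6% of all pairs) and 0% at 4-fold. Among proximal movers 10.3% were up with 50 tags and 6.06% at 4-fold, and 0% were down in both. Of the other values, 83 stayed within 1.5 times or within the interval of the reported one, and no named mover changed its direction. Of the named genes that had not moved, Crx was at -2.14 and Mir124a-1hg at -3.34 points in the second columns and Vax2os at -0.25 in the first, with the sign opposite to that of the added columns. The median change in share was among these 83 values under each alternative run for it. Leaving out pairs in another gene kept 191 distal and 57 proximal movers, and leaving out A-rich sites 188 and 64. Sequence after the site was at hand for 147 proximal and 34 distal sites of the 197 distal movers. For the 66 proximal movers it was at hand for 26 proximal and 28 distal sites. Sites without it were kept, so the counts of 188 and 64 cannot show how many movers rest on A-rich sites. No paired analysis was possible because each stage has 1 sample. Genes with few tags at 1 end point cannot enter the comparison of site choice.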
